A study of Mus musculus with 9 samples.

Results

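The Toll-like receptor genes Tlr1, Tlr2, Tlr4, Tlr6, Tlr7 and Tlr9, the co-receptor gene Cd14 and the adaptor genes Myd88 and Ticam2 were followed in blood and in a tumour-infiltrating cell fraction of mice with a hepatoma. They were chosen by name: every non-control probe whose gene name, or whose accession in a RefSeq table, gave a listed symbol was taken. This gave 10 probes for the 9 genes among 41174 probes of the array, 2 of them for Tlr4. Of the 9 genes, 7 passed the filter on dim probes and were tested among 14253 genes. Ticam2 was not well above background on any array, and Tlr1 lacked a usable spot on 1 array.

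The samples came from 3 female athymic BALB/c mice (strain written Balb/c atymic in the labels), numbered 832, 833 and 834, whose age is not given in the sources used here. Athymic mice lack a thymus and so make few mature T cells, and all 3 groups share this background. The day 0 Blood group is blood taken before inoculation. The day 10 Blood group is blood of the same mice 10 days after Hepa1-6 cells, an established line from a mouse hepatoma, were placed under the skin. The day 10 TIC group is the fraction enriched in tumour-infiltrating inflammatory cells that was made from the ground tumours at that time. The source name of its samples reads blood, while their titles and tissue labels give tumour-infiltrating cells, which set the group. On each of the 9 arrays the sample RNA was in the Cy5 channel, while the Cy3 channel held the same reference RNA each time, from blood of a female C57Bl/6 mouse that was left untreated. There was 1 array per mouse and group, so n = 3 throughout, and no dyes were swapped. TIC RNA and blood RNA were isolated with different kits, so tissue and kit cannot be told apart.

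Toll-like receptors recognise microbial molecules and molecules released by damaged cells. Tlr2 pairs with Tlr1 or Tlr6 at the cell surface and binds lipoproteins, and Tlr4 binds lipopolysaccharide with help from Cd14 and Ly96. Tlr7 and Tlr9 sit in endosomes and bind single-stranded RNA and CpG-rich DNA. Myd88 carries the signal of all of these receptors to the transcription factor NF-kappaB and to interferon regulatory factors, and Ticam2 links Tlr4 to the adaptor Ticam1. In blood, neutrophils and monocytes carry mainly the surface receptors, while B cells and plasmacytoid dendritic cells are known for Tlr7 and Tlr9.

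In the sample channel 52% ± 3.5 (SD, n = 3) of spots stood well above background on TIC arrays, compared with 31.2% ± 6.39 on day 0 blood arrays and 17.7% ± 3.41 on those of day 10 blood. In Cy3 it was 40.2 to 50.4%. The TIC array of mouse 833 stood apart, with a correlation across genes of 0.88 and 0.9 to the other TIC arrays, which correlated at 0.99 with each other. The day 10 blood arrays were all on slide 3 and the TIC arrays on slides 1 and 2, so these groups share no slide and are linked across slides only through day 0 blood. Slide 2 holds 2 day 0 blood and 2 TIC arrays, and slide 3 holds 1 day 0 blood array. The erythroid list of 6 tested genes and the platelet list of 5 were lower in the TIC fraction for all their tested genes against both bloods (5 erythroid and 4 platelet genes under median centring), and 5 of 6 tested hepatoma and liver genes were higher, Afp and Igfbp1 among them. By the test described below, 33.1% of all genes were lower and 34.4% higher against day 10 blood, and 33.6% and 31.7% against day 0 blood. The part of tumour cell RNA in the TIC values was not tested. In bulk RNA fewer cells of a type and less RNA per cell cannot be told apart.

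Values are given in the following as net Cy5 intensity (spot mean minus median local background) and as the log2 ratio of sample over reference. The ratio was normalized by loess, which centres genes of like brightness on 0 within each array. A difference in it therefore says how a gene moved relative to genes of like brightness. Under median centring, where each array is shifted by 1 number, the median difference of all genes tested was 1.38 for TIC against day 10 blood and 1.16 against day 0 blood, compared with 0.07 and 0.01 under loess. Every direction in the TIC comparisons has to be read with this shift. An offset of 50 was added to each intensity, which pulls ratios of dim probes toward 0, and levels of different probes cannot be compared.

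**Figure D1:**
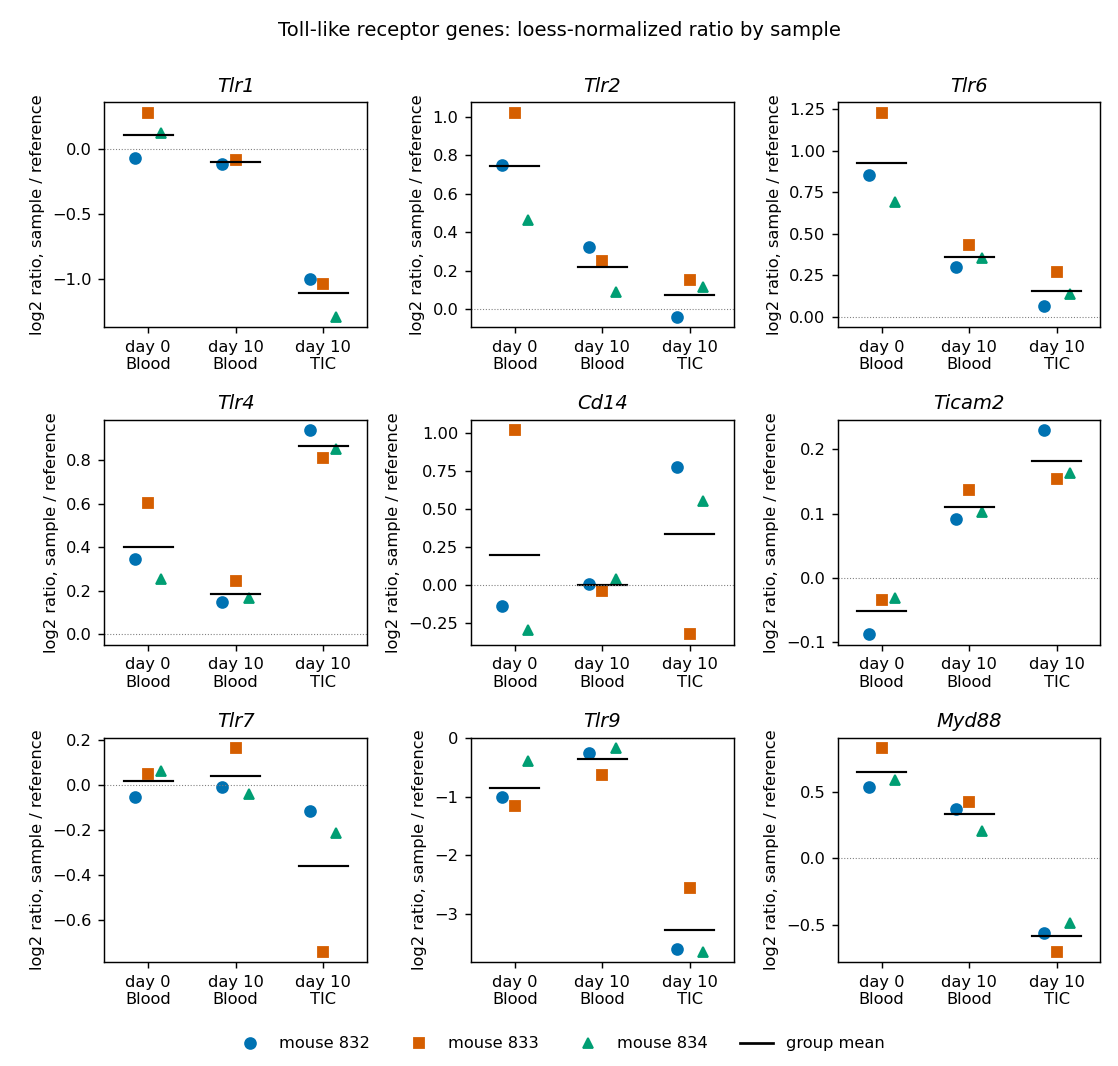
Loess-normalized log2 ratio of sample over reference (y axis, a scale of its own for each gene) in the 3 groups (x axis), a symbol per mouse and a line at the group mean. Tlr1, Tlr2, Tlr6, Tlr7, Tlr9 and Myd88 have their lowest mean in the TIC fraction, and Tlr4 and Cd14 their highest. Ticam2 was not above background, and Tlr1 lacks the day 10 blood value of mouse 834. Under median centring Tlr2, Tlr7, Tlr9 and Myd88 are higher in the TIC fraction than in either blood.

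Detection in Cy5 differed between the members. Tlr6, Tlr9 and Myd88 were well above background on all 9 arrays. Tlr2 was so on 8 arrays, with day 10 blood of mouse 834 missing. Tlr1 and Tlr7 were detected on 7 arrays each, on all 3 day 0 blood and all 3 TIC arrays but on only 1 day 10 blood array. Cd14 was detected on 6 arrays, 2 of day 0 blood, 1 of day 10 blood and 3 of TIC. The brighter Tlr4 probe was detected on the 3 day 0 blood and 3 TIC arrays and on no day 10 blood array. All members that were detected anywhere were thus detected on the 3 TIC arrays. In the reference channel Tlr1, Tlr2, Tlr7, Tlr9, Cd14 and Myd88 were detected on 9 arrays and Tlr6 on 8, while neither Tlr4 probe was detected there.

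**Figure D2:**
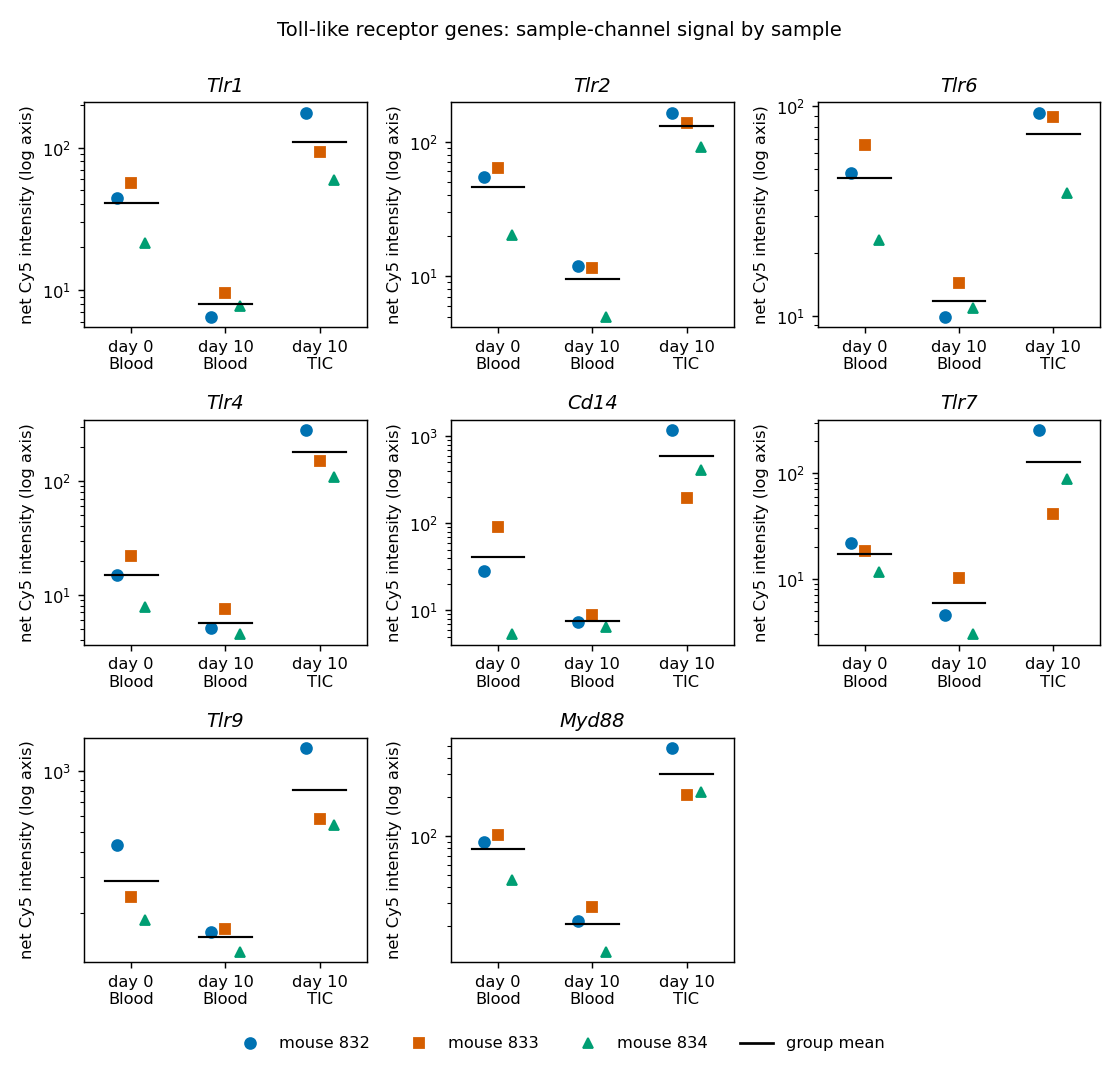
Net Cy5 intensity (y axis, log scale, different for each gene) of 8 members in the 3 groups (x axis), a symbol per mouse and a line at the group mean, before any normalization between arrays. Every member shown is brightest on average on the TIC arrays and dimmest in day 10 blood, as are the arrays as a whole; Ticam2 is left out because it was not above background.

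Net Cy5 intensity before normalization was highest in the TIC fraction for each member shown. The arrays as a whole moved the same way: the 90th percentile of net Cy5 over all non-control spots was 28.8 to 77.3 in day 0 blood, 12.4 to 22 in day 10 blood and 455 to 1401 in the TIC fraction. That of Cy3 was 151 to 193 on all arrays. How much of a member's raw signal comes with this brightness was not tested.

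Between the bloods none of the 7 tested members passed the threshold, an adjusted p under 0.05 in limma's test with Benjamini-Hochberg adjustment over all genes. No gene at all passed it (percent of all genes called 0), while 14.8% of all genes and 3 of the 7 members (Tlr2, Tlr6 and Myd88) had an unadjusted p under 0.05. The 2 groups did not overlap for 4 of the 7 members (Tlr2, Tlr4, Tlr6 and Myd88, all with the lower ratio in day 10 blood in all 3 mice), against 32.9% of all genes in either direction. Of these members, Tlr4 was well above background on no day 10 blood array and Tlr2 on 2 of 3. The median difference of the 7 members was -0.22, and that of all genes was -0.01.

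Tlr2, the receptor for lipoproteins, was measured by 10 spots of a probe at chr3:83922349-83922408 of build mm8, the position given in the files. Its net Cy5 intensity in mice 832, 833 and 834 was 54.4, 63.6 and 20.2 in day 0 blood, 12, 11.6 and 5 in day 10 blood, and 164, 137 and 91.5 in the TIC fraction. Its log2 ratio was 0.75, 1.02 and 0.46 in day 0 blood, 0.32, 0.25 and 0.09 in day 10 blood, and -0.04, 0.15 and 0.11 in the TIC fraction. Day 0 blood lay above both other groups in each mouse, and the day 10 groups overlapped. The difference between the bloods was -0.52 ± 0.15 (SE, n = 3 mice a group, adjusted p = 0.181), and that of TIC against day 10 blood was -0.15 ± 0.15 (adjusted p = 0.414). Against day 0 blood the TIC fraction was lower (-0.67 ± 0.15, adjusted p = 0.00448, lower in 3 of 3 mice), though median centring gave a higher value, 0.63, beside an all-gene median of 1.16.

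Tlr6, which pairs with Tlr2 for diacylated lipoproteins, had a probe with 1 spot an array at chr5:65232261-65232320. Its net Cy5 intensity was 48.3, 65.7 and 23.1 in day 0 blood, 9.9, 14.4 and 10.9 in day 10 blood, and 93.4, 89.4 and 38.4 in the TIC fraction. Its log2 ratio was 0.85, 1.23 and 0.69 in day 0 blood, 0.30, 0.43 and 0.35 in day 10 blood, and 0.06, 0.27 and 0.13 in the TIC fraction. All 3 groups were separate, in the order day 0 blood, day 10 blood and TIC fraction. The day 10 blood difference was -0.56 ± 0.14 (adjusted p = 0.143), and TIC against day 10 blood was -0.21 ± 0.14 (adjusted p = 0.23), so these neighbours in the order did not differ past the threshold. Between the ends of the order, TIC was lower than day 0 blood (-0.77 ± 0.14, adjusted p = 0.00175), while under median centring the difference was 0.08, below the all-gene median. Without the TIC array of mouse 833 the difference between the bloods, unchanged at -0.56, had an adjusted p of 0.0415, and 1058 of all genes then passed the threshold between the bloods in place of 0. With Agilent's processed signals TIC against day 10 blood was -1.87 (adjusted p = 0.000551), and with Cy5 alone, quantile normalized, it was -0.89 (adjusted p = 0.00134).

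Tlr1, the other partner of Tlr2, was not in the test because its only spot on the day 10 blood array of mouse 834 lay on non-uniform local background. Its probe is at chr5:65204011-65204070, on the same chromosome as the Tlr6 probe. Its log2 ratio was -0.07, 0.28 and 0.12 in day 0 blood, -0.12 and -0.08 in day 10 blood of mice 832 and 833, and -1.0, -1.04 and -1.29 in the TIC fraction. The TIC ratios lay below all blood ratios, though the Cy5 signal was higher, on arrays that were brighter throughout. Net Cy5 intensity was 44.3, 56.5 and 21.5 in day 0 blood, and 176, 93.5 and 58.8 in the TIC fraction. In day 10 blood it was 6.5, 9.6 and 7.7, the last from the spot set aside. Tlr1 was well above background on only 1 day 10 blood array, so the size of its difference from that group is not measured. It had no fit under median centring. In a fit that kept probes missing on 1 array, a choice made after the data were seen, TIC minus day 10 blood was -1.01 ± 0.15 (adjusted p = 0.000613) and TIC minus day 0 blood -1.22 ± 0.13 (adjusted p = 0.000145). With Agilent's processed signals, which keep that spot, the first was -0.59 ± 0.38 (adjusted p = 0.173) and the second -1.87 ± 0.38 (adjusted p = 0.000907).

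Across the 9 arrays the ratios of Tlr2 and Tlr6 followed each other, with a Pearson correlation of 0.97 as a description. The arrays share the reference and the loess fit, and day 0 blood set the high end of both genes. The genes whose ratio was most like that of Tlr2 were Vps28 (r = 0.976), Sprr2f (0.974) and H2-K2 (0.972), and for Tlr6 they were Krt80 (0.98), Sprr2f (0.977) and Adssl1 (0.974). Of 11965 genes compared, 18 had an r over 0.95 with Tlr2 and 19 with Tlr6.

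Tlr4, the receptor for lipopolysaccharide, was the only tested member with a higher ratio in the TIC fraction against both bloods past the threshold under loess, while under median centring Tlr2, Tlr7, Tlr9, Cd14 and Myd88 were as well. Its main probe at chr4:66329051-66329109 had 10 spots, and its net Cy5 intensity was 15, 22.1 and 7.9 in day 0 blood, 5.1, 7.5 and 4.5 in day 10 blood, and 281, 150 and 110 in the TIC fraction. The log2 ratio was 0.35, 0.60 and 0.25 in day 0 blood, 0.15, 0.25 and 0.17 in day 10 blood, and 0.94, 0.81 and 0.85 in the TIC fraction. All TIC values lay above all blood values. TIC against day 10 blood was higher by 0.68 ± 0.11 (adjusted p = 0.000806), and against day 0 blood by 0.47 ± 0.11 (adjusted p = 0.00659), in 3 of 3 mice each.

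Because Tlr4 was not well above background in day 10 blood, the size of its difference there is not measured, and the values are those of a signal near background. The bloods differed by -0.22 ± 0.11 (adjusted p = 0.44). The Tlr4 calls were not kept in every setting. With Cy5 alone, quantile normalized, the differences were 0.14 (adjusted p = 0.416) against day 10 blood and 0.16 (adjusted p = 0.377) against day 0 blood. With slide as a block they were 0.42 (adjusted p = 0.164) and 0.36 (adjusted p = 0.066), and with Agilent's processed signals the second was 0.93 (adjusted p = 0.0777). Median centring gave 1.57 and 1.41, each above its all-gene median.

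The second Tlr4 probe, at chr4:66415883-66415942 and listed under another transcript, was not well above background on any array, with net Cy5 intensities of -1.5 to 3.1. It gives no level to set beside the first. The genes most like Tlr4 in ratio were Oxnad1 (r = 0.991), Clstn3 (0.991) and Cox4i1 (0.989), and 1.65% of the genes compared had an r over 0.95.

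Cd14, which hands lipopolysaccharide to the Tlr4 complex, varied widely between mice on day 0 blood arrays and on TIC arrays. Its net Cy5 intensity was 28, 90.3 and 5.3 in day 0 blood, 7.3, 8.9 and 6.5 in day 10 blood, and 1177, 195 and 415 in the TIC fraction. Its log2 ratio was -0.14, 1.02 and -0.30 in day 0 blood, 0.00, -0.04 and 0.04 in day 10 blood, and 0.78, -0.33 and 0.56 in the TIC fraction. Mouse 833 was the high value of day 0 blood and the low value of the TIC fraction, and all 3 groups overlapped. Cd14 was well above background on only 1 day 10 blood array, so the values of that group are near background. Their narrow spread gives no measure of variation between mice, and differences from that group have no measured size. TIC against day 10 blood was 0.33 ± 0.38 (adjusted p = 0.45), TIC against day 0 blood 0.14 ± 0.38 (adjusted p = 0.751) and day 10 against day 0 blood -0.19 ± 0.38 (adjusted p = 0.932). Without the TIC array of mouse 833 the first of these was 0.67 ± 0.33 (adjusted p = 0.0947). With slide as a block its sign turned, to -0.62 (adjusted p = 0.486). It passed the threshold with Agilent's processed signals (1.44, adjusted p = 0.0433) and under median centring (2.66, adjusted p = 0.00195). No gene had an r over 0.95 with Cd14, and the nearest were F3 (0.934), Zfp957 (0.928) and Kcne3 (0.925).

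Ly96, the Tlr4 partner that binds lipopolysaccharide, was low in the same mouse. Its log2 ratio in the TIC fraction was 2.71, 0.34 and 2.17, against 0.02 to 0.25 in the bloods. It was higher in TIC than in day 10 blood by 1.65 ± 0.50 (adjusted p = 0.0174) and than in day 0 blood by 1.55 ± 0.50 (adjusted p = 0.0236), also under median centring (3.45 and 3.28) and with Cy5 alone (1.09 and 1.05). Without the TIC array of mouse 833 these were 2.35 and 2.25, and with slide as a block they were 1.19 (adjusted p = 0.296) and 1.07 (adjusted p = 0.132). It was not well above background in day 10 blood, so the size of that difference is not measured. Ticam2, the adaptor that joins Tlr4 to Ticam1, had net Cy5 intensities from -0.4 to 9.4 and was not well above background in either channel on any array, so it has no measured level here.

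Tlr7, the endosomal receptor for single-stranded RNA, had net Cy5 intensities of 21.7, 18.4 and 11.7 in day 0 blood, 4.6, 10.3 and 3 in day 10 blood, and 255, 41.4 and 88.1 in the TIC fraction. Its probe is at chrX:162649362-162649421. The log2 ratio was -0.05, 0.05 and 0.06 in day 0 blood, -0.01, 0.17 and -0.04 in day 10 blood, and -0.12, -0.74 and -0.22 in the TIC fraction. The TIC values lay below all blood values, and that of mouse 833 stood apart as the lowest. TIC minus day 10 blood was -0.40 ± 0.16 (adjusted p = 0.0579) and TIC minus day 0 blood -0.38 ± 0.16 (adjusted p = 0.0705), so neither passed the threshold. Without the TIC array of mouse 832 both passed, at -0.52 (adjusted p = 0.0279) and -0.50 (adjusted p = 0.034), and without that of mouse 833 they were -0.20 (adjusted p = 0.0888) and -0.19 (adjusted p = 0.119). Under median centring Tlr7 was higher in TIC, by 1.02 and 0.91, both below the all-gene medians. The bloods differed by 0.02 ± 0.16 (adjusted p = 0.992). Tlr7 was well above background on only 1 day 10 blood array, so the values of that group are near background. Rab44 (r = 0.975), Dnajc4 (0.974) and Plekhg5 (0.966) were most like it.

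Tlr9, the endosomal receptor for CpG-rich DNA, had the largest difference of the members in the loess ratio. Its probe, at chr9:106084749-106084808, had a net Cy3 intensity of 1378 to 2066 for the reference blood. In Cy5 it was 433, 240 and 184 in day 0 blood, 161, 166 and 128 in day 10 blood, and 1304, 580 and 539 in the TIC fraction. The log2 ratio was -1.0, -1.17 and -0.39 in day 0 blood, -0.26, -0.63 and -0.17 in day 10 blood, and -3.60, -2.57 and -3.64 in the TIC fraction. All TIC ratios lay below all blood ratios, though the Cy5 signal was higher, on arrays that were brighter throughout. The bloods overlapped.

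Relative to genes of like brightness, Tlr9 was 7.54-fold lower in TIC than in day 10 blood (log2 difference -2.91 ± 0.32, adjusted p = 6.25e-05) and 5.33-fold lower than in day 0 blood (-2.41 ± 0.32, adjusted p = 0.000231), in 3 of 3 mice each, whereas median centring turned both, to 1.90 and 1.24, above the all-gene medians of 1.38 and 1.16. Cy5 alone, quantile normalized, gave -2.17 and -1.75, and Agilent's processed signals gave -2.79 and -2.48, all past the threshold. With mouse and slide as blocks together the difference from day 10 blood was -1.67 and no longer passed (adjusted p = 0.244). Within slide 2, which holds 2 TIC and 2 day 0 blood arrays, TIC minus day 0 blood was -2.02 (adjusted p = 0.0381). Without the TIC array of mouse 833 the differences were -3.27 and -2.77. Day 10 minus day 0 blood was 0.50 ± 0.32 (adjusted p = 0.548), higher in 3 of 3 mice, but -0.66 under median centring (adjusted p = 0.475) and 0.04 within slide 3, which holds 1 day 0 blood array. Slc4a9 (r = 0.998), Amelx (0.997) and Apc (0.995) were most like Tlr9, and 11.6% of the genes compared had an r over 0.95 with it.

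Myd88, the shared adaptor, had 10 spots of a probe at chr9:119184902-119184961. Its net Cy5 intensity was 89.7, 102 and 45.9 in day 0 blood, 21.8, 28.1 and 12.6 in day 10 blood, and 484, 209 and 221 in the TIC fraction. Its log2 ratio was 0.53, 0.83 and 0.58 in day 0 blood, 0.37, 0.43 and 0.20 in day 10 blood, and -0.56, -0.70 and -0.49 in the TIC fraction. All 3 groups were separate, with TIC lowest. The TIC ratio was lower than in day 10 blood (-0.92 ± 0.12, adjusted p = 0.000196) and than in day 0 blood (-1.23 ± 0.12, adjusted p = 4.45e-05), but median centring gave higher values, 1.63 against an all-gene median of 1.38 and 0.96 against 1.16. Cy5 alone gave -0.74 and -0.98 and Agilent's processed signals -1.53 and -1.70, all past the threshold, and within slide 2 the difference from day 0 blood was -1.28 (adjusted p = 0.0255). With mouse and slide as blocks together the difference from day 10 blood was -1.06 and no longer passed (adjusted p = 0.154). The bloods differed by -0.32 ± 0.12 (adjusted p = 0.272). Ralgapa1 (r = 0.998), Gimap1 (0.996) and Synrg (0.991) were most like Myd88, and 2.07% of the genes compared had an r over 0.95.

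Tlr9 and Myd88 were the members called lower in TIC than in both bloods under loess, Cy5 alone and Agilent's processed signals. Under median centring they were higher than both. For this reason the 250 bases before their RefSeq starts are shown (GRCm38.p6, 5′ to 3′ along the gene). RefSeq promoter entries matched 5 of the 9 genes. Capitals mark matches, on either strand, to GAGGAA, the core letters bound by the myeloid and B cell factor PU.1, or to GAAA followed after any 2 bases by GAAA, the core of the interferon-stimulated response element (ISRE). The NF-kappaB consensus was searched as well, and no match overlapped another.
Tlr9, chr9:106222348-106222597, plus strand: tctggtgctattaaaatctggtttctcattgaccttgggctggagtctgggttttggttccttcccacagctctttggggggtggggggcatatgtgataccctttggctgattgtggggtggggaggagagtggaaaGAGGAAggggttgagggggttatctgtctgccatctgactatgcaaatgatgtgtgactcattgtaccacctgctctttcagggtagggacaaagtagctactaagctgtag
Myd88, chr9:119340019-119340268, minus strand: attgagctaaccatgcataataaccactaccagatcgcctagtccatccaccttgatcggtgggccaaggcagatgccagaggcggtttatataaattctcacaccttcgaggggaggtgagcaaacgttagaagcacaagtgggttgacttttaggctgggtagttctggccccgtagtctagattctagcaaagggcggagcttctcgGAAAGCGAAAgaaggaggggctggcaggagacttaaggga
The Tlr9 window held GAGGAA 112 bases before the start, and the Myd88 window held the ISRE core 40 bases before it. Of 32851 promoter windows of the same length, 23.3% held GAGGAA, 2.98% the ISRE core and 3.9% the NF-kappaB consensus, which neither window held. These are matches of letters, not measured sites. Among the members, single windows were read only for Tlr9 and Myd88, and the part of the matches in their directions was not tested.

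Taking the members by count, TIC against day 10 blood called 3 of 7, Tlr4 higher and Tlr9 and Myd88 lower, where 67.6% of all genes were called, 34.4% higher and 33.1% lower. At an unadjusted p under 0.05 there were 4 of 7 (Tlr7 as well) beside 70.9% of all genes. TIC against day 0 blood called 5 of 7, Tlr4 higher and Tlr2, Tlr6, Tlr9 and Myd88 lower, where 65.4% of all genes were called, 31.7% higher and 33.6% lower. At an unadjusted p under 0.05 there were 6 of 7 (Tlr7 as well) beside 68.9% of all genes. Neither share stood clear of that background. The groups did not overlap for 5 of 7 members against 71.7% of all genes in the first comparison, and for 6 of 7 against 67.6% in the second. Both comparisons use the same TIC arrays. The members' median difference was -0.21 and -0.67, where all genes had 0.07 and 0.01.

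**Figure D3:**
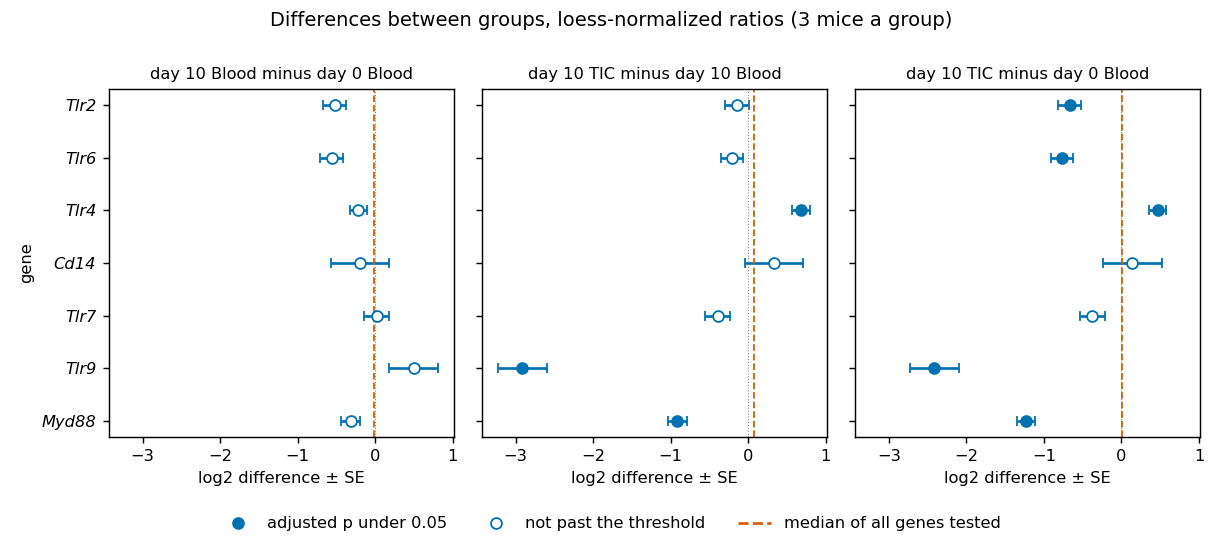
Log2 difference ± SE (x axis) of the 7 tested members (y axis) in the 3 comparisons, with loess-normalized ratios and 3 mice a group; filled points have an adjusted p under 0.05 and the dashed line is the median of all genes tested. No point is filled between the bloods, 3 are against day 10 blood and 5 against day 0 blood. Under median centring all 7 members are higher in TIC than in day 10 blood.

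Under median centring all 7 members were called higher in TIC than in day 10 blood and 6 of 7 higher than in day 0 blood, but then 95.7% and 92% of all called genes were higher. With Cy5 alone, 3 members (Tlr6, Tlr9 and Myd88) were called lower against day 10 blood and 4 (Tlr2 as well) against day 0 blood. None was called higher. Of 14253 genes, 4934 were then higher and 3313 lower against day 10 blood, and 3866 and 3228 against day 0 blood. With mouse and slide as blocks together 0 of 7 were called against day 10 blood and 3 of 7 (Tlr6, Tlr9 and Myd88) against day 0 blood. In that fit 214 of all 14253 genes were higher and 896 lower against day 10 blood, and 1472 and 2960 against day 0 blood.

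**Figure D4:**
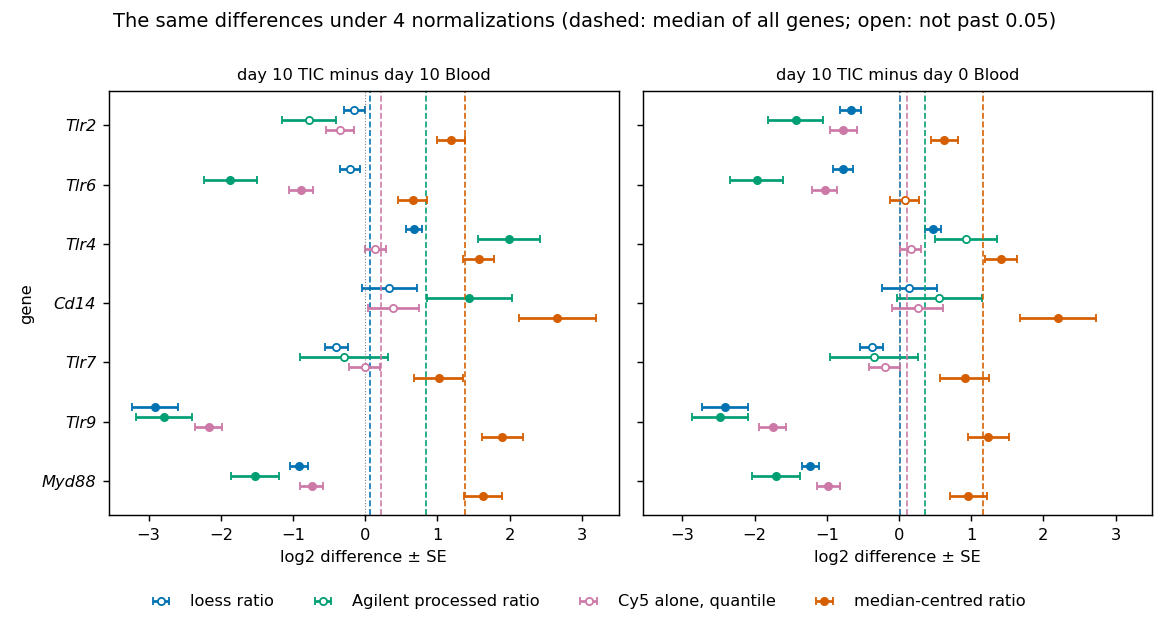
Log2 difference ± SE (x axis) of the 7 tested members (y axis) for TIC against day 10 blood and against day 0 blood, under 4 normalizations in 4 colours; filled points have an adjusted p under 0.05, and each dashed line is the all-gene median of its normalization. Tlr9 and Myd88 lie below 0 in 3 of the normalizations and above 0 under median centring, where the all-gene median is 1.38 and 1.16.

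Of 41 other genes of the pathway, 38 had a probe and 34 were tested. Tlr3, Tlr5 and Tlr8 had probes that were not well above background in Cy5, apart from 1 Tlr3 probe on 1 TIC array, and no probe was matched to Tlr11, Tlr12 or Tlr13. Between the bloods 0 of the 34 genes passed the threshold, and 7 had an unadjusted p under 0.05, beside 14.8% of all genes. The smallest p values there belonged to Cd36, a scavenger receptor that works with Tlr2 (1.43 ± 0.23, adjusted p = 0.0659), and Irf7, the interferon regulatory factor downstream of Tlr7 and Tlr9 (0.94 ± 0.17, adjusted p = 0.0702). Next came Unc93b1, the chaperone that brings Tlr7 and Tlr9 to endosomes (-0.56 ± 0.17), Tnfaip3 and Tollip, negative regulators (-0.66 ± 0.22 and 0.32 ± 0.11), and Cd180, a Toll-like receptor homologue of B cells (-0.28 ± 0.11). Without the TIC array of mouse 833, 5 of the 34 passed, beside 1058 of 14253 genes. The 5 were Cd36, Irf7 and Tab2, higher (adjusted p = 0.0131, 0.00865 and 0.0496), and Ly86 and Nfkb1, lower (adjusted p = 0.0342 and 0.0491). In the fit of all 9 arrays the other Nfkb1 probes gave -0.09 and 0.02 between the bloods, compared with -0.37 for the probe used. Other probes gave 0.18 for Tab2 (0.37 for the one used), 0.02 for Tollip (0.32) and 1.04 for Cd36 (1.43).

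Against day 10 blood the TIC ratio was higher for 8 of the 34 pathway genes and lower for 14, and against day 0 blood higher for 8 and lower for 18, with medians of -0.30 and -0.49. That is 22 and 26 of 34 called, beside 67.6% and 65.4% of all genes, so the lists do not stand clear of the background. Under median centring 28 and 27 were higher and 0 lower, and with Cy5 alone 12 and 8 were higher and 8 and 11 lower, so the balance of directions depends on the scaling. With slide as a block 2 and 5 were higher and 5 and 13 lower.

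By role, the 8 co-receptors and chaperones had 3 higher (Ly96, Cnpy3 and Hsp90b1, the last a chaperone of Toll-like receptors) and 4 lower (Lbp, Cd180, Unc93b1 and Cd36) in both TIC comparisons. Lbp, which carries lipopolysaccharide to Cd14, was lower in ratio (-0.59 against day 10 blood), but median centring gave 1.48 and Cy5 alone 2.98. Of 7 other adaptors and receptor-proximal kinases 1 was higher (Irak2) and 2 lower (Irak1 and Traf3). Of 6 negative regulators 2 were higher (Sigirr and Socs1) and 2 lower against day 10 blood, 4 against day 0 blood, Irak3 and Tollip in both. Of 13 downstream kinases and transcription factors 2 were higher (Map3k7 and Tab1), and 6 lower against day 10 blood and 8 against day 0 blood. Tirap and Ticam1, the other adaptors, did not pass the threshold in either, at 0.04 and 0.03 against day 10 blood. Beside the counts by role, 34.4% of all genes were called higher relative to day 10 blood and 33.1% lower. Relative to day 0 blood the shares were 31.7% higher and 33.6% lower. Of the 22 genes called against day 10 blood, 9 (Ly96, Lbp, Cd180, Irak2, Irak3, Socs1, Map3k7, Tab1 and Ikbkg) did not rise well above background on a day 10 blood array, so their fitted differences give no size. Among them Lbp, Cd180, Irak3 and Ikbkg were called lower, though well above background on 3, 2, 3 and 3 TIC arrays. The direction of these genes against day 10 blood is therefore not measured either.

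The pathway genes with the smallest p were Irf7, Cd36 and Tollip in both TIC comparisons. The Irf7 ratio was -1.58, -1.74 and -1.62 in day 0 blood, -0.69, -0.63 and -0.80 in day 10 blood, and -4.77, -4.11 and -4.72 in the TIC fraction, a difference from day 10 blood of -3.82 ± 0.17 (adjusted p = 1.11e-06), while median centring gave 0.47 (adjusted p = 0.241). The Cd36 difference was -4.49 ± 0.23 (adjusted p = 1.77e-06) and that of Tollip -2.07 ± 0.11 (adjusted p = 2.08e-06), with 0.28 (adjusted p = 0.388) and 1.12 (adjusted p = 0.0026) under median centring. Their other probes gave smaller differences, -2.38 for Cd36 and -0.65 for Tollip. Tab2, a partner of the kinase Map3k7, had -2.17 ± 0.28, and Traf3, a ubiquitin ligase of the interferon branch, -1.43 ± 0.21, and both were higher under median centring, by 1.51 and 1.03. The other Tab2 probe gave -1.39 under loess. Cd180 was lower than day 0 blood (-1.11 ± 0.11), against -0.35 under median centring (adjusted p = 0.064), and was well above background on 2 of the 3 TIC arrays. Unc93b1 was lower than day 0 blood (-1.18 ± 0.17), though 2.21 higher under median centring. Its other probe gave -2.95 against day 0 blood under loess. Against day 10 blood that probe gave -3.32, compared with -0.62 for the one used. Between the bloods it disagreed in sign with the one used, at 0.37.

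**Figure D5:**
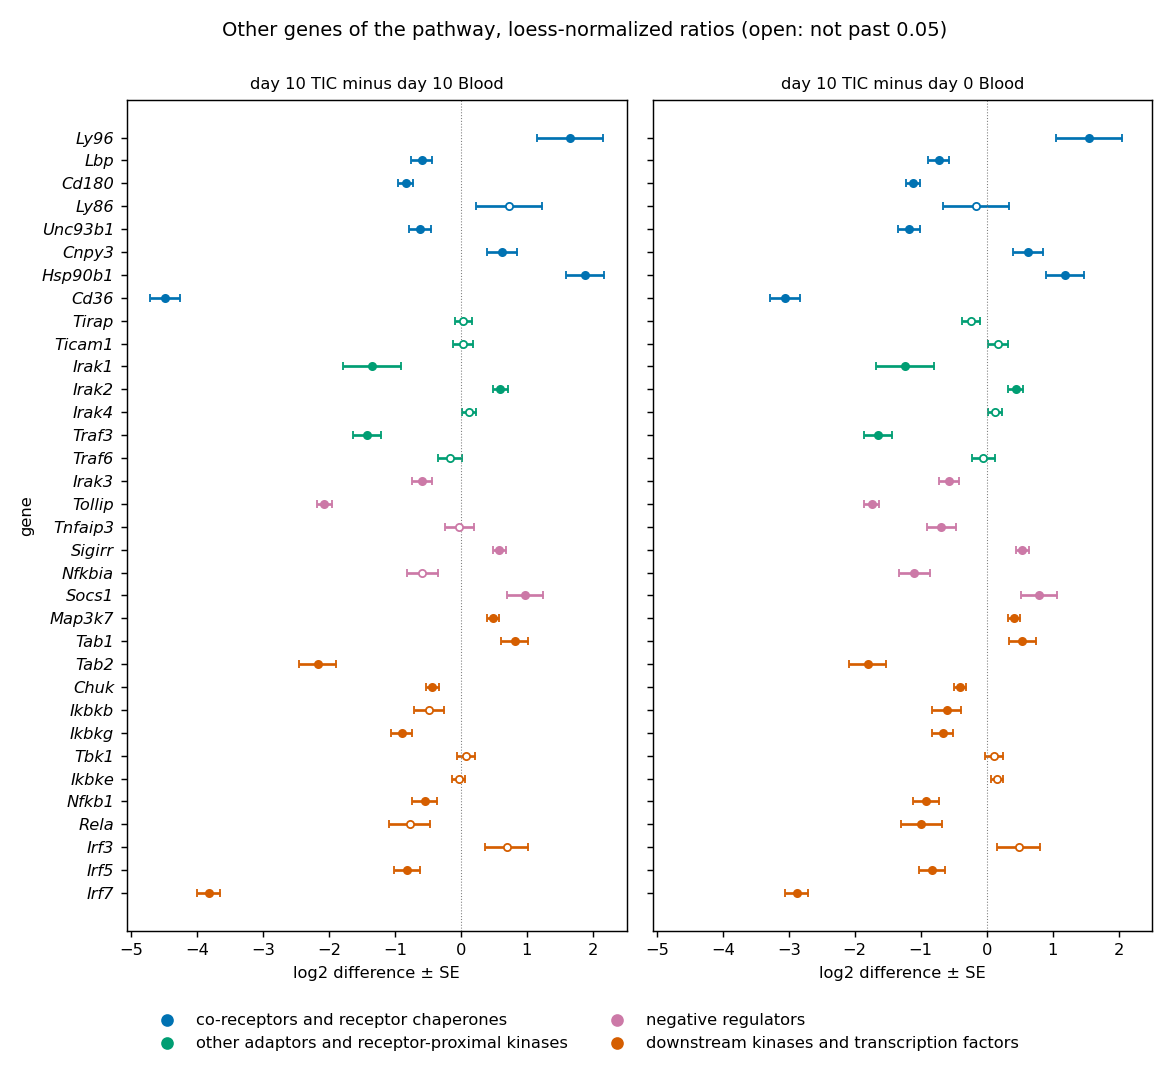
Log2 difference ± SE (x axis) of the 34 tested pathway genes (y axis, coloured by role) for TIC against day 10 blood and against day 0 blood, with loess-normalized ratios; filled points have an adjusted p under 0.05. Irf7 and Cd36 lie farthest below 0 and Ly96 and Hsp90b1 farthest above; under median centring 28 and 27 of the 34 were higher and none lower.

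Markers of the cell types known for these receptors also differed between the groups, not all in the members' directions. Beside the counts below, 33.1% of all genes were lower in TIC than in day 10 blood and 34.4% higher. Against day 0 blood these shares were 33.6% and 31.7%. Under median centring 10274 of 14253 genes were higher than in day 10 blood and 463 lower, and 9432 and 816 against day 0 blood. The mean ratio of 7 tested B cell genes was 0.67 to 0.88 in day 0 blood, -0.67 to -0.13 in day 10 blood and -4.19 to -3.70 in the TIC fraction. All 7 were lower in TIC than in either blood. Under median centring 3 were lower than in day 10 blood, among them Ms4a1, which encodes CD20 (-1.36), and 7 than in day 0 blood, and 0 higher in either. Of 9 tested neutrophil genes 7 were lower than in day 10 blood and 8 than in day 0 blood, with a mean ratio of 1.71 to 2.33, 1.46 to 1.63 and -1.12 to -0.90 in the 3 groups. Under median centring 2 were higher and 0 lower in the first of these comparisons, and 1 higher and 3 lower in the second.

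Of 10 monocyte and macrophage genes 3 were higher in TIC than in day 10 blood and 0 lower. Against day 0 blood 3 were higher and 2 lower (Itgam, -0.89, adjusted p = 0.00169, and Ccr2, -0.81, adjusted p = 0.0165). C1qc and Mrc1, both genes of tissue macrophages, had the smallest p and were not well above background in either blood, so the sizes are not measured. Under median centring 10 were higher than in day 10 blood and 9 than in day 0 blood, with 0 lower. Of all 14253 genes, 10274 and 9432 were then higher as well. The mean ratio of the 10 genes was 0.11 to 0.16, -0.03 to 0.07 and 0.31 to 0.57 in the 3 groups. The TIC value of mouse 833 was the lowest of the 3 for this mean and for Tlr4, Cd14, Ly96, Tlr7 and Myd88. It was the highest for Tlr2, Tlr6 and Tlr9 and for the list's Adgre1, C1qc and Csf1r. Of 4 tested plasmacytoid dendritic cell genes 2 were higher (Bst2 among them) and 2 lower (Ccr9 among them) in both TIC comparisons, with 3 and 2 higher and 0 lower under median centring, and their defining gene Siglech was not well above background on any array. The T cell gene Cd4 was not either, and the 6 tested T cell genes were all lower in TIC under loess. Under median centring 1 was higher and 0 lower against day 10 blood and 0 were called against day 0 blood, and with Cy5 alone 3 and 5 were lower. The summed quantile-normalized Cy5 intensity of the B cell genes was 8050 to 12500 in day 0 blood, 1640 to 3530 in day 10 blood and 448 to 474 in the TIC fraction, that of the monocyte and macrophage genes 1710 to 1990, 1440 to 1750 and 2460 to 5640, and that of the neutrophil genes 60400 to 95200, 40300 to 50400 and 5390 to 13000. The part of these cell types in the members' differences was not tested.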

How the data were processed

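The authors deposited, per the file headers, scanner tables made with Agilent Feature Extraction 10.5.1.1 (9.1.3.1 per the submitters' processing notes), with Cy5 and Cy3 intensity per spot and a log10 ratio. The deposited value table held the same log10 ratios, sample over reference, with column medians of 0. Members, gene lists and tests were chosen with earlier results of these data known. Genes outside the members were named by rule: the 6 pathway genes and 2 genes of each marker list with the smallest p per comparison. The other Toll-like receptors and the 3 genes most like each member were added. Pathway genes listed by role are those that passed the threshold, besides Tirap and Ticam1, which did not. Siglech and Cd4, which were not tested, were named outside the rule. Lbp, Ly86, Nfkb1, Adgre1 and Csf1r were named after their values were seen. Itgam and Ccr2 were named by the rule between the bloods, and their TIC differences were added after the values were seen.

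Here spot mean and local background intensity were corrected by normexp (offset 50), with spots of non-uniform background set aside, and log2 ratios were normalized within each array by loess. Control spots and outliers had weight 0, and spots were averaged per probe. Probes were kept if at least 3 of 9 arrays had them well above background in Cy5 and all arrays had a value, and the brightest probe of a gene was used, giving 14253 genes. Probe positions are those of the files (mm8). Group differences came from limma 3.58.1 (R 4.3.3) on all 9 arrays, with 6 residual degrees of freedom, and Benjamini-Hochberg adjustment, threshold 0.05. The fit was tested on simulated data. The number of arrays limits the precision.

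Samples of the same number come from the same mouse. The correlation of their deviations from the group means was 0.19 to 0.35 between the bloods and -0.06 to 0.06 in the TIC comparisons. Alternatives were Agilent's processed signals, the deposited table, median centring, Cy5 alone, other filters, blocks for mouse and slide, and each array left out.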

Additional observations from a re-analysis of the deposited data

How the results depend on the processing

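Under median centring in place of loess, TIC against day 10 blood became 1.19 for Tlr2, 0.66 for Tlr6, 1.02 for Tlr7, 1.90 for Tlr9 and 1.63 for Myd88, and TIC against day 0 blood 0.63, 0.08, 0.91, 1.24 and 0.96; 7 members were then called against day 10 blood. In the other settings run no called member difference turned its sign. Members called against day 10 blood numbered 5 with Agilent's processed signals and 5 with the deposited value table. With the processed signals 6598 of 14308 genes were higher and 3827 lower. Against day 0 blood 3 members were called with probes above background on all 9 arrays, where only 3 members remained to be tested. With mouse as a replicate block and slide as a block the members called numbered 0 and 3. The mouse number alone as a replicate block changed no member's call and gave 32 genes called between the bloods. All genes called between the bloods numbered 765 with processed signals, 760 with the deposited table, 562 with Cy5 alone, 106 and 147 with probes above background on at least 6 and on all 9 arrays, and 747 with only the 2 groups compared. All genes called against day 10 blood numbered 5462 and 2956 with these filters (at least 6 arrays, all 9), 4274 when slide was a block, and 1110 when mouse (replicate block) and slide were blocks together; against day 0 blood they numbered 5388 and 2910 with the filters and 4432 with mouse and slide. Leaving out 1 array at a time gave 0 to 1058 genes between the bloods (18 without day 0 blood of mouse 834 and 1058 without TIC of mouse 833), 8326 to 10945 against day 10 blood and 8062 to 10798 against day 0 blood, and 0 to 1, 3 to 4 and 5 to 6 members. Called higher genes were 51% and 48.5% of calls in the TIC comparisons, 63.3% and 57.1% with processed signals, and 95.7% and 92% with median centring. An offset of 1 in place of 50, added after seeing the data, ended the Tlr4 call against day 0 blood (0.72, adjusted p = 0.0824) and gave a Tlr6 call against day 10 blood (-0.96, adjusted p = 0.0194). The cause of these changes was not tested. Signal over background limits Tlr4, Tlr7, Cd14 and Tlr1 in day 10 blood and Ticam2 everywhere.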
